A study of Homo sapiens with 13 samples.

Results

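The FOXO and MEF2 mixed arrays are synthetic enhancers that hold binding motifs of FOXO and of MEF2 and of no other factor. They were chosen from the construct names alone, as every array whose list of motifs contains exactly these names, in any order, number and flanking context. There were 12 such constructs among 542 in the episomal library with 5 bp between motifs, 6 among 442 in the episomal library with 10 bp between motifs, and 12 among 530 in the integrated 5 bp library. They comprised 4 designs, FOXO-MEF2, MEF2-FOXO, FOXO-MEF2-FOXO and MEF2-FOXO-MEF2, each in 3 flanking sequence contexts numbered 1 to 3. The 10 bp library held only the 2 designs of 2 motifs, and none of the tables held a FOXO and MEF2 array of 4 or 5 motifs.

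The study measured arrays built from 8 kinds of motif by STARR-seq in MEC1, an established B cell line of chronic lymphocytic leukaemia, labelled as wild type. For the episomal assay the plasmid libraries were electroporated into MEC1 cells in duplicate and RNA was taken after 24 h, which gave 2 mRNA libraries for each spacer beside 1 library of the plasmid DNA. For the integrated assay the 5 bp library went into MEC1 cells that carried a CRE recombinase and a landing pad with GFP driven by the CMV promoter (loxP-CMV-GFP-lox2272), and that were kept in blasticidin before transfection. Cells without GFP were sorted after 10 to 12 days and grown for 6 to 7 more days before RNA and genomic DNA were extracted, which gave 3 samples of each. No label says that these triplicates came from separate cultures, and their p-values then reflect only the spread between extractions, which may be technical.

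In STARR-seq a tested enhancer is part of the transcript it drives, and its activity is read from how often it occurs in RNA relative to DNA. FOXO proteins are forkhead transcription factors that are held out of the nucleus when the PI3K and AKT pathway is active, and in B cells they act in development and in the response to signalling from the B cell receptor. MEF2 proteins are MADS-box transcription factors, best known from muscle, which also act in B lymphocytes and bind an A and T rich motif. The letters of the motifs were not used here, and what identifies a molecule in these tables is its random barcode of 12 bases. For each of the 4 designs, the barcode below is the one with the most plasmid reads among those seen in both 5 bp assays.
FOXO-MEF2 in context 3: ggcggatgggta
MEF2-FOXO in context 1: cttaggcggaga
FOXO-MEF2-FOXO in context 2: tctctgtgacag
MEF2-FOXO-MEF2 in context 2: aagcttgttcct
The FOXO-MEF2 barcode had 113 and 94 mRNA reads against 63 plasmid reads in the episomal assay, and after integration it was listed at 0 RPM (reads normalised to sequencing depth) in all 3 mRNA samples, against 3.71, 5.83 and 24.8 RPM in genomic DNA. The MEF2-FOXO barcode had 66 and 43 mRNA reads against 49 plasmid reads, and in the integrated assay 21.0, 0 and 129 RPM in mRNA, against 32.2, 28.9 and 14.6 RPM in genomic DNA. The FOXO-MEF2-FOXO barcode had 241 and 232 mRNA reads against 59 plasmid reads, and in the integrated assay 54.2, 0 and 0 RPM in mRNA, against 29.4, 47.8 and 54.3 RPM in genomic DNA. The episomal replicates of these barcodes were close to each other, whereas a single integrated barcode could be present in 1 mRNA sample and at 0 in the next. The MEF2-FOXO-MEF2 barcode, with 193 and 156 mRNA reads against 69 plasmid reads, also had integrated mRNA in 1 sample alone, at 49.3, 0 and 0 RPM, against 45.5, 42.1 and 139 RPM in genomic DNA.

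Episomal values below rest on barcodes with a construct name and at least 5 plasmid reads, whose reads were summed per construct. The 12 members of the 5 bp library had 262 to 1006 such barcodes each, the 6 members of the 10 bp library 393 to 542, and the 12 integrated members 14 to 42. The episomal libraries held 3850658 to 4563359 reads. Activity is the share of a construct in mRNA over its share in plasmid DNA, on the log2 scale, and 0 means equal shares. In the integrated library it is the construct's summed mRNA RPM over its genomic DNA RPM. Both episomal replicates of a spacer are divided by the same plasmid library, so their spread and SD hold no error of the plasmid DNA. Every listed episomal barcode had at least 1 read in each library of its table, which overstates weak constructs. At 5 bp, 3.12% and 3.51% of the members' barcodes stood at that lowest value of 1 mRNA read in replicates 1 and 2. The shares were 12.9% and 14.9% for arrays of 2 FOXO motifs, 11.2% and 12.6% for 3 FOXO motifs, 8.22% and 7.34% for 2 MEF2 motifs, and 18.1% and 21.0% for 3 MEF2 motifs. They were 11.1% and 13.1% for all mixed arrays, and 17.7% and 21.3% for the constructs named rd, which carry no motif name and are taken as constructs without a motif.

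With 5 bp spacers all 12 mixed arrays had mean activities above 0, and the arrays of 2 FOXO motifs around 1 MEF2 motif were the strongest in contexts 2 and 3. FOXO-MEF2 had activities of 0.51 and 0.56 in context 1, with a mean of 0.54 ± 0.04 (SD, n = 2). In context 2 it had 0.37 and 0.42, and in context 3 0.36 and 0.50. MEF2-FOXO had 0.24 and 0.29 in context 1, 0.55 and 0.62 in context 2, and 0.16 and 0.23 in context 3. All 12 of these values lay above 0, and the replicates of FOXO-MEF2 in context 3 were the furthest apart.

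FOXO-MEF2-FOXO had activities of 0.50 and 0.55 in context 1, 1.30 and 1.32 in context 2, and 1.12 and 1.19 in context 3. These values of contexts 2 and 3 were the highest of all members. MEF2-FOXO-MEF2, which exchanges the motifs, had 0.02 and 0.04 in context 1, 0.40 and 0.49 in context 2, and -0.01 and 0.13 in context 3. It was thus the weakest of the 4 designs in contexts 1 and 3, where its mRNA and plasmid shares were nearly equal. Single barcodes of a construct spread widely. The lower and upper quartiles of the barcodes' own activities, averaged over both replicates, were 0.46 and 1.74 for FOXO-MEF2-FOXO in context 2, and -0.87 and 0.37 for MEF2-FOXO-MEF2 in context 1. In mRNA replicate 1, no barcode held more than 3.79% of a member's reads at 5 bp.

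In the edgeR fit of the 442 designs present in both episomal libraries, all 6 members of 2 motifs passed as higher in mRNA than in plasmid DNA at 5 bp (Benjamini-Hochberg adjusted p under 0.05, called passing below), with log2 ratios of 0.74 to 1.13, where 40.5% of all designs passed as higher. With the 5 bp library fitted alone, all 12 members passed, at 0.77 to 2.05, where 42.6% of 542 designs passed as higher. These ratios use TMM scaling, under which the median of all 442 designs was -0.14. Scaling by library totals moved that median by -0.67, to -0.81, and 4 of the 6 members then passed, with MEF2-FOXO at 0.14 in context 1 and 0.07 in context 3 not passing. The shares of 40.5% and 42.6% hold for TMM scaling only. The share of all designs that passed by library totals is not given, so the 4 of 6 is not read as a result about the members. Scaled on the rd constructs the median moved by 0.75 and the 6 members stood at 1.49 to 1.88.

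The mixed arrays were compared with homotypic arrays of the same number of motifs in the same context, which asks whether a mixture gives more than its parts. At 5 bp each of the 12 mixed arrays passed as higher than both the FOXO array and the MEF2 array of equal length. Of the 418 mixed arrays of any pair 29.9% passed against both of theirs (limma on differences of log2 shares within libraries, in which scaling cancels). The arrays of 2 FOXO motifs themselves had mean activities of -0.74, -0.75 and -1.06 in contexts 1, 2 and 3, and those of 2 MEF2 motifs -0.93, -0.20 and -0.15. All mixed arrays of 2 motifs were above 0 in activity, and all 6 of these homotypic arrays were below 0. The MEF2 array of 2 motifs in context 1 rests on 48 barcodes, the fewest of these. Over arrays of 3 motifs the homotypic means were -0.89, -0.83 and -0.56 for FOXO, and -1.80, -1.22 and -1.70 for MEF2.

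The smallest of these differences was that of MEF2-FOXO in context 3 over the MEF2 array, at 0.39 and 0.31 in replicates 1 and 2 (limma estimate 0.35, SE 0.09, adjusted p = 0.00463). The largest was that of FOXO-MEF2-FOXO in context 3 over the MEF2 array, at 2.93 and 2.78 (estimate 2.85, SE 0.10). Against the FOXO array the members were higher by 0.62 to 2.14, and against the MEF2 array by 0.35 to 2.85. FOXO-MEF2-FOXO in context 2 stood 2.14 above 3 FOXO motifs, from which it differs only in the motif at the centre. MEF2-FOXO-MEF2 in context 1 stood 1.83 above 3 MEF2 motifs, again with a change of the central motif alone.

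A second expectation was the mean of both homotypic log2 activities, weighted by how many motifs of each kind the mixed array holds. Against this copy-weighted mean all 12 members were higher at 5 bp, by a median of 1.37, where 56.7% of 418 mixed arrays passed as higher and the median over all of them was 0.37. FOXO-MEF2-FOXO in context 2 led with departures of 2.29 and 2.25 in replicates 1 and 2, a 4.82-fold difference (log2 2.27, SE 0.05, limma adjusted p = 5.49e-06). The same design departed by 2.13 and 2.06 in context 3 and by 1.69 and 1.74 in context 1. The other design of 3 motifs, MEF2-FOXO-MEF2, departed by 1.38 to 1.54 in the 3 contexts. The designs of 2 motifs lay lower, between 0.80 for MEF2-FOXO in context 3 (1.75-fold) and 1.37 for FOXO-MEF2 in context 1 (2.59-fold). The arrays of 3 motifs thus departed by 1.38 to 2.27 and those of 2 motifs by 0.80 to 1.37, a contrast that was not tested. The references differed too. Homotypic MEF2 arrays were lower with 3 motifs than with 2 in every context, and FOXO arrays were lower in contexts 1 and 2 and higher in context 3. In activity itself, MEF2-FOXO-MEF2 lay below both designs of 2 motifs in contexts 1 and 3. Among the 28 pairs of motifs, FOXO with MEF2 ranked 2nd by the median departure over arrays of 2 motifs (1.05), after MEF2 with PU1 (1.28) and before FOXO with PU1 (0.89). These pairs share homotypic arrays, so their departures are not independent.

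All 12 members also lay above rd in their context at 5 bp, by 1.28 to 2.71, where 61.0% of 539 arrays passed as higher. These differences share 1 rd construct per context and are not independent of each other. Next to these, the arrays of 2 FOXO motifs lay 0.36 to 0.51 above rd and those of 2 MEF2 motifs 0.32 to 1.40. Arrays of 3 FOXO motifs lay 0.29 to 0.99 above rd. Those of 3 MEF2 motifs differed from rd by -0.55, -0.11 and -0.15 in contexts 1, 2 and 3, of which context 1 passed as lower.

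Adding the other motif to a single motif raised activity at 5 bp in all 6 arrays of 2 motifs. This comparison was added after seeing the files, since no array of 4 or 5 motifs exists for the pair. With MEF2 placed behind a single FOXO motif the differences over FOXO alone were 1.44, 1.02 and 1.77 in contexts 1, 2 and 3, and with FOXO placed behind a single MEF2 motif the differences over MEF2 alone were 1.03, 1.42 and 1.82. All 6 passed in limma, where 58.3% of 168 mixed arrays of 2 motifs passed as higher than the array without its last motif. Compared with the array without its first motif, all 6 passed as well, at 1.17 to 2.05, where 60.1% passed as higher. Single FOXO motifs had mean activities of -0.90, -0.62 and -1.35, and single MEF2 motifs of -0.76, -0.84 and -1.62.

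What a further motif added differed between FOXO and MEF2. A FOXO motif added to the end of FOXO-MEF2 gave differences of 0.92 in context 2 and 0.73 in context 3, and of -0.01 in context 1, which did not pass. A MEF2 motif added to the end of MEF2-FOXO gave -0.24 in context 1, which passed as lower, and -0.14 in contexts 2 and 3, which did not pass (adjusted p = 0.096 and 0.119). Thus 2 of 6 passed as higher and 1 as lower, where 33.1% and 44.8% of 154 mixed arrays of 3 motifs did. Added to the front, FOXO gave 0.26, 0.73 and 0.96 over MEF2-FOXO, all passing as higher. MEF2 added in front of FOXO-MEF2 gave -0.51 and -0.37 in contexts 1 and 3, both passing as lower, and 0.05 in context 2. Here 3 of 6 passed as higher and 2 as lower, where 31.2% and 47.4% of 154 arrays did.

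The direct exchange between designs of 3 motifs follows from 2 of these additions, both made to FOXO-MEF2, and is no separate evidence of the contrast. FOXO-MEF2-FOXO exceeded MEF2-FOXO-MEF2 by 0.48 and 0.51 in context 1, by 0.90 and 0.83 in context 2 and by 1.13 and 1.06 in context 3. All 3 differences passed (SE 0.06 to 0.07), where 84.5% of 71 such exchanges over all pairs passed in either direction. These arrays differ in composition as well as in order, since one holds 2 FOXO motifs and the other 2 MEF2 motifs. Order alone, in arrays of 2 motifs, moved activity less. FOXO-MEF2 minus MEF2-FOXO was 0.27 in context 1 (adjusted p = 0.00668), -0.19 in context 2 (0.0239) and 0.23 in context 3 (0.0211). All 3 passed in limma, where 70.2% of 84 exchanges passed, and the sign in context 2 was opposite to that in the other contexts. Without mRNA replicate 2 only 1 of the 3 passed.

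Flanking context mattered for some members at 5 bp. Of 12 differences between contexts of the same design 6 passed, where 59.4% of 534 did, so the members stood near the background. The largest were those of FOXO-MEF2-FOXO, with context 2 above context 1 by 0.79 and context 3 above context 1 by 0.63. For MEF2-FOXO and MEF2-FOXO-MEF2, context 2 lay above context 1 by 0.31 and 0.41, and context 3 differed from context 2 by -0.39 and -0.38. FOXO-MEF2 showed no context difference that passed, with differences of -0.14 to 0.03.

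With 10 bp spacers the 6 arrays of 2 motifs had mean activities between -0.32 and 0.53. FOXO-MEF2 had activities of 0.09 and 0.04 in context 1, 0.52 and 0.55 in context 2, and -0.03 and 0.05 in context 3. MEF2-FOXO had 0.06 and -0.04 in context 1, 0.06 and 0.14 in context 2, and -0.31 and -0.33 in context 3. FOXO-MEF2 in context 2 was the highest and MEF2-FOXO in context 3 the lowest in both replicates, and the other 4 had means of 0.01 to 0.10. By edgeR with TMM scaling all 6 passed as higher in mRNA than in plasmid DNA, at 0.23 to 1.09, where 45.7% of 442 designs passed as higher. Scaled by library totals, which moved the median of all designs by -0.55, to -0.67, FOXO-MEF2 in context 2 alone passed as higher (0.53) and MEF2-FOXO in context 3 passed as lower (-0.32). The share of 45.7% holds for TMM scaling only. The share by library totals is not given, so these calls are not read as a result about the members.

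Against homotypic arrays of 2 motifs, all 6 members at 10 bp passed as higher than both the FOXO and the MEF2 array, where 34.3% of 318 mixed arrays did. They exceeded the FOXO arrays by 0.45 to 1.93 and the MEF2 arrays by 0.22 to 0.75. The smallest of these, MEF2-FOXO in context 3 over the MEF2 array, was 0.19 and 0.24 in replicates 1 and 2 (limma adjusted p = 0.0388). The arrays of 2 FOXO motifs had mean activities of -1.27, -1.40 and -0.77 in contexts 1, 2 and 3, and those of 2 MEF2 motifs -0.52, -0.22 and -0.54. From the copy-weighted mean the members departed by a median of 0.91, from 0.33 for MEF2-FOXO in context 3 to 1.34 for FOXO-MEF2 in context 2 (2.54-fold). All 6 passed, where 66.0% of 318 mixed arrays passed as higher with a median of 0.53 over all. By the median departure over arrays of 2 motifs the pair ranked 5th of 28 at 10 bp, where the first 5 medians lay between 0.91 and 0.96. All 6 lay above rd as well, by 0.41 to 0.88, where 44.6% of 439 arrays passed as higher. The arrays of 2 FOXO motifs differed from rd by -0.59, -1.09 and 0.11 in contexts 1, 2 and 3. For those of 2 MEF2 motifs the differences were 0.16, 0.09 and 0.33.

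In context 3 the single motifs were themselves active at 10 bp, and there the mixed arrays lay below them. A single FOXO motif in context 3 had activities of 0.32 and 0.23, and a single MEF2 motif 0.28 and 0.25, against -0.83 and -0.88 for FOXO and -0.73 and -0.95 for MEF2 as means in contexts 1 and 2. MEF2-FOXO in context 3 differed from MEF2 alone by -0.59 and -0.58 and from FOXO alone by -0.63 and -0.56 in replicates 1 and 2, and both comparisons passed as lower. FOXO-MEF2 in context 3 differed by -0.26 from MEF2 alone (adjusted p = 0.0163) and by -0.26 from FOXO alone, which did not pass (0.0754). In contexts 1 and 2 the 4 arrays exceeded the array without their last motif by 0.75 to 1.41 and the array without their first motif by 0.80 to 1.49. Over all 3 contexts 4 of 6 passed as higher and 1 as lower than the array without its last motif, where 47.6% and 33.9% of 168 did. Of the same 6, 4 passed as higher and 2 as lower than the array without its first motif, where 48.8% and 38.7% did.

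The difference between the 2 orders at 10 bp passed in limma in contexts 2 and 3. FOXO-MEF2 lay above MEF2-FOXO by 0.46 and 0.41 in context 2 (adjusted p = 0.00154) and by 0.28 and 0.38 in context 3 (0.00814). In context 1 the difference was 0.02 and 0.08 and did not pass. So 2 of 3 passed, where 54.8% of 84 exchanges passed at 10 bp, and this count was not read as a departure from the background. Context differences passed in 4 of 6 cases, where 73.6% of 440 did. In FOXO-MEF2, context 2 lay 0.47 above context 1, and context 3 differed from context 2 by -0.53. In MEF2-FOXO, context 3 differed from contexts 1 and 2 by -0.33 and -0.42.

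Setting both spacers side by side, 5 of the 6 arrays of 2 motifs were lower at 10 bp than at 5 bp. The log2 differences, 10 bp minus 5 bp, were -0.46, -0.41, -0.24, -0.47 and -0.51 in edgeR for the 5 that passed as lower, where 41.2% of 442 designs passed as lower. FOXO-MEF2 in context 2 did not pass at 0.15 (adjusted p = 0.0985), stood at 0.27 and passed as higher by library totals, and stood at -0.55 and passed as lower when scaled on the rd constructs. MEF2-FOXO in context 1 stood at -0.13 and did not pass by library totals (adjusted p = 0.211), so that 4 of the 6 then passed as lower. The share of all designs that passed as lower by library totals is not given. The rd constructs moved too, with mean activities at 10 bp of -0.68, -0.31 and -0.87, against -1.25, -1.12 and -1.55 at 5 bp. Relative to rd all 6 members were lower at 10 bp, by -0.66 to -1.29 as log2 differences, where 67.9% of 439 arrays passed as lower. Each spacer had a separate plasmid pool with separate transfections, and effects of spacer and pool cannot be told apart.

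The departure from the copy-weighted mean, which needs no scaling, changed between spacers in 4 of the 6 arrays. It was smaller at 10 bp for FOXO-MEF2 in contexts 1 (-0.41) and 3 (-0.37) and for MEF2-FOXO in context 3 (-0.47), and larger for FOXO-MEF2 in context 2 (0.47). Thus 3 passed as lower and 1 as higher, where 34.6% and 35.5% of 318 mixed arrays did, and with so few members these counts were not read as a departure from the background. MEF2-FOXO in contexts 1 and 2 differed by -0.20 and -0.15 and did not pass (adjusted p = 0.07 and 0.178). The effect of order differed between spacers in context 2 alone, by 0.62 (SE 0.08, adjusted p = 0.00155), where 48.8% of 84 exchanges passed.

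After integration most members had lower mRNA than genomic DNA values, as did the median construct, at a log2 ratio of -1.45 over 513 constructs. Summed over all barcodes, the library itself held more RPM in mRNA (561424 to 578948) than in genomic DNA (487877 to 506222). Activities here are on the scale of the integrated library and are not set against the episomal ones. FOXO-MEF2-FOXO and MEF2-FOXO-MEF2 in context 2 were the highest. MEF2-FOXO-MEF2 in context 2 had activities of 0.14, 0.56 and 0.67 (mean 0.46 ± 0.28, SD, n = 3), and FOXO-MEF2-FOXO in context 2 had -0.69, 0.37 and 0.44. FOXO-MEF2-FOXO had 0.08, -1.30 and 0.07 in context 1 and -0.54, -0.80 and -0.51 in context 3. MEF2-FOXO-MEF2 had -3.39, -1.55 and -3.20 in context 1 and -2.20, -4.01 and -1.89 in context 3. The 3 contexts of FOXO-MEF2-FOXO overlapped each other, whereas MEF2-FOXO-MEF2 in context 2 lay above its other contexts in every replicate.

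The integrated arrays of 2 motifs were all below 0. FOXO-MEF2 had -0.95, -2.90 and -2.77 in context 1, -1.51, -1.74 and -1.22 in context 2, and -1.25, -2.36 and -1.29 in context 3. MEF2-FOXO had -1.73, -1.80 and -1.23 in context 1, -1.97, -1.23 and -5.00 in context 2, and -1.31, -3.92 and -1.58 in context 3. These 6 constructs overlapped each other in their replicate values. In limma, on log2 of the summed RPM plus 0.5, 8 of the 12 members had less mRNA than genomic DNA and passed, where 55.9% of 513 constructs passed as lower. The 4 that did not pass were FOXO-MEF2-FOXO in contexts 1 and 2, MEF2-FOXO-MEF2 in context 2 and MEF2-FOXO in context 2. Centred on the rd constructs, 0 members passed as lower in limma, against the 8 without that centring (9 at an unadjusted p under 0.05). The share of all constructs that passed under the centring is not given, so the 0 is not read as a result about the members. The rd constructs had activities of -0.87, -0.86 and -1.27 in context 1, 0.53, 1.32 and 0.40 in context 2, and -3.59, -3.82 and -3.90 in context 3, so they differed more between contexts than between replicates.

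Few integrated barcodes carried mRNA, and a single one could hold most of a construct's signal. Of the 295 member barcodes 111 had mRNA in at least 1 replicate (37.6%, 95% exact binomial interval 32.1% to 43.4%, counting error only), against 37.5% of 12761 barcodes of all mixed arrays and 19.5% (12.9% to 27.6%) of the 123 rd barcodes. The share per replicate for FOXO-MEF2-FOXO was 21.7%, 25% and 21.7%, a mean of 22.8% ± 1.88 (SD, n = 3). It averaged 14.4% ± 5.26 for MEF2-FOXO-MEF2 and 16.0% ± 2.75 for the arrays of 2 motifs. The shares were 13.1% ± 2.27 for 3 FOXO motifs, 10.9% ± 4.84 for 3 MEF2 motifs, 12.1% ± 5.34 for 2 FOXO motifs and 11.4% ± 3.94 for 2 MEF2 motifs. FOXO-MEF2-FOXO lay above 3 FOXO motifs and 3 MEF2 motifs without overlap, but all mixed arrays together also reached 19.9% ± 2.55, and the shares of the other designs overlapped those of their homotypic arrays. In context 3, 25 of 42 FOXO-MEF2-FOXO barcodes had mRNA (59.5%, 43.3% to 74.4%), the highest share of any member, and 1 of 17 MEF2-FOXO barcodes did. The barcode with most mRNA held 74.3% of the mRNA of MEF2-FOXO-MEF2 in context 2, 63.3% of FOXO-MEF2-FOXO in context 2 and 20.2% of FOXO-MEF2-FOXO in context 3. It held 84.0% of the mRNA of rd in context 2.

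Against the copy-weighted mean, 4 of the 12 integrated members passed as higher, where 24.3% of 375 mixed arrays passed as higher, so the count lay near the background. Their median departure was 1.45, beside 0.20 over all mixed arrays. MEF2-FOXO-MEF2 in context 2 departed by 2.07, 3.08 and 3.65 (estimate 2.93, SE 0.40, adjusted p = 0.00472) and FOXO-MEF2-FOXO in context 2 by 1.63, 3.42 and 3.46 (estimate 2.84, SE 0.52, adjusted p = 0.0113). FOXO-MEF2 in context 3 departed by 2.60, 1.00 and 2.37 and FOXO-MEF2-FOXO in context 3 by 1.38, 0.89 and 2.33. These 4 were above 0 in every replicate, as were FOXO-MEF2 in contexts 1 and 2 and FOXO-MEF2-FOXO in context 1, which did not pass. With 1 replicate number left out, 1 to 3 of the 12 passed. Without the strongest barcode of each construct, a setting chosen after seeing the data, MEF2-FOXO-MEF2 in context 2 departed by 1.65 and FOXO-MEF2-FOXO in context 2 by 2.04, both still passing, and FOXO-MEF2 in context 3 no longer passed (adjusted p = 0.117). In context 1 the MEF2 array of 2 motifs had 3 barcodes, with activities of -1.18, -8.03 and -8.85, so departures there have little precision.

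Against the homotypic arrays one by one, 8 of 24 integrated differences passed as higher and 1 as lower, where 25.7% and 22.8% of 775 did. Against both homotypic arrays 2 of 12 members passed as higher, both in context 2, where 8.8% of 375 mixed arrays did. MEF2-FOXO-MEF2 exceeded 3 FOXO motifs by 3.57 and 3 MEF2 motifs by 2.62, and FOXO-MEF2-FOXO exceeded them by 3.15 and 2.20. Without the strongest barcode of each construct 1 of 10 members passed against both, and with 1 replicate number left out 0 to 2 of 12 did. The lower of each member's 2 differences had a median of 0.69, beside -1.21 over all mixed arrays. A member that did not pass could thus still lie above both. MEF2-FOXO-MEF2 in context 1 was the member that passed as lower, at -3.30, -2.07 and -3.14 against 3 FOXO motifs, an array in which 1 barcode held 86.9% of the mRNA. Against rd, 2 members passed as higher and 3 as lower, where 30.4% and 29.4% of 510 arrays did. Those higher were FOXO-MEF2-FOXO (3.15) and FOXO-MEF2 (2.14) in context 3, and those lower were FOXO-MEF2 (-2.24) and MEF2-FOXO (-3.48) in context 2 and MEF2-FOXO-MEF2 (-1.71) in context 1. The 2 members that passed against both homotypic arrays did not pass against rd. Their mean activities were 0.46 for MEF2-FOXO-MEF2 and 0.04 for FOXO-MEF2-FOXO, below that of rd in the same context 2 (0.75).

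Order and context were seldom resolved after integration. Of the 3 order differences in arrays of 2 motifs 0 passed in limma, at -0.62, 1.24 and 0.64 in contexts 1, 2 and 3, and 0 had an unadjusted p under 0.05, where 38.1% of 84 exchanges passed. Of the designs of 3 motifs, FOXO-MEF2-FOXO exceeded MEF2-FOXO-MEF2 by 1.66, 3.20 and 1.37 in context 3 (adjusted p = 0.03), by 3.47, 0.24 and 3.26 in context 1 (adjusted p = 0.0737), and differed by -0.83, -0.19 and -0.23 in context 2 (adjusted p = 0.258). So 1 of 3 passed, where 46.5% of 71 did, and 0 passed without replicate 1 or without replicate 3. Of 12 context differences 2 passed, where 30.3% of 492 did. Both involve MEF2-FOXO-MEF2 in context 2, which lay 3.17 above context 1, and from which context 3 differed by -3.16. Across the 12 members, episomal and integrated mean activities correlated with r = 0.62 and rho = 0.47, against r = 0.40 and rho = 0.43 over 513 constructs. These are descriptions across constructs that share libraries.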

How the data were processed

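Barcoded STARR-seq constructs were measured in episomal libraries (2 mRNA libraries and 1 of plasmid DNA for each spacer) and in an integrated 5 bp library (3 mRNA and 3 genomic DNA samples, 1 plasmid DNA sample). Samples were grouped by the library, spacer and material in their titles. Per the file headers, the authors' episomal tables hold raw read counts of each barcode, and their integrated table holds deposited RPM values, filtered on genomic DNA, beside plasmid read counts. How barcodes were counted and matched to constructs is not stated in those headers or labels. Columns that could not be tied to a sample (9) were left out, as were unnamed barcodes, with 16.6% to 18.5% of the episomal reads.

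Reads of named barcodes with at least 5 plasmid reads were summed per construct (at least 5 barcodes; integrated: at least 3 barcodes, no read minimum). The 442 designs in both episomal libraries were fitted jointly with edgeR 4.0.16 (quasi-likelihood, TMM, 4 groups) in R 4.3.3. Differences between constructs were fitted with limma 3.58.1 on log2 shares, or on log2(RPM + 0.5), over all arrays of each kind. With 1 plasmid library per spacer, plasmid DNA was taken to vary like mRNA. Benjamini-Hochberg adjusted p under 0.05 passed, over all rows of a contrast. The mRNA replicates differed by more than sampling (chi-square over degrees of freedom 6.41 and 6.76). Reads carry no molecular identifiers, so reads are not independent molecules. The scripts were tested on simulated data.

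Members were set by construct names alone, and comparisons and named constructs were chosen, all with earlier results of these data known. All members are accounted for, and activities per library are given for every one. Alternatives were other scalings, DESeq2 1.42.0, other minimum reads, barcodes and pseudocounts, medians over barcodes, left-out replicates, a replicate block and other expectations. Comparisons with a motif removed, the count above both homotypic arrays and the setting without each construct's strongest barcode were added after seeing the data. The planned comparison of 4 with 2 and 5 with 3 motifs has no members in this pair. No sequences of the arrays were used.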

Additional observations from a re-analysis of the deposited data

Results flagged for a closer look

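The results below were singled out because the effect differed between spacers in a test of the difference, or because every integrated replicate lay on the opposite side from both episomal replicates at 5 bp. The second kind was not tested.

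Between spacers, the effect of order in context 2 (FOXO-MEF2 minus MEF2-FOXO) differed by 0.62, 10 bp minus 5 bp, with FOXO-MEF2 the higher at 10 bp (0.43) and the lower at 5 bp (-0.19). The departure of FOXO-MEF2 from the copy-weighted mean differed by -0.41 in context 1, 0.47 in context 2 and -0.37 in context 3, and that of MEF2-FOXO by -0.47 in context 3. Such differences were common over all pairs, where 48.8% of 84 exchanges passed. Of 318 departures 35.5% passed as higher and 34.6% as lower. The flagged members were not read as a departure from that background.

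In the integrated library, FOXO-MEF2-FOXO in context 2 differed from MEF2-FOXO-MEF2 by -0.42, against 0.87 in the episomal library. MEF2-FOXO-MEF2 in context 1 differed by -2.84 from 3 FOXO motifs, against 0.92. Relative to rd, FOXO-MEF2 stood at -1.20 in context 1 and -2.24 in context 2, against 1.78 and 1.51 in the episomal library. MEF2-FOXO in context 2 stood at -3.48, against 1.70, and MEF2-FOXO-MEF2 in context 1 at -1.71, against 1.28. In the integrated library a single barcode held 84.0% of the mRNA of rd in context 2 and 67.3% of that in context 1. The differences from rd without the strongest barcode of each construct are not given here, and the cause of these results was not tested.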

How the results depend on the processing

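At 5 bp the 12 calls above the copy-weighted mean, above both homotypic arrays and above rd were kept by every member still tested under each alternative. At 10 bp 5 or 6 of 6 passed as above both. The joint fit holds 6 members at 5 bp, and with the 5 bp library fitted alone 12 passed as higher than plasmid DNA. By library totals 1 passed at 10 bp, and the share of all designs under that scaling is not given. With an mRNA replicate left out, 1 to 2 order calls passed at 5 bp. Of the 6 arrays of 2 motifs, 4 to 6 passed as lower at 10 bp than at 5 bp over all alternatives, with 4 by library totals, with at least 20 plasmid reads and without either 5 bp mRNA replicate or 10 bp mRNA replicate 2.

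Integrated counts of members that passed moved more. Leaving out 1 replicate number gave 1 to 3 members above the copy-weighted mean, 1 to 3 above FOXO, 2 to 6 above MEF2, 0 to 2 above both, 2 to 5 above rd, 0 to 1 calls for FOXO-MEF2-FOXO against MEF2-FOXO-MEF2, 0 to 2 context calls, and 4 to 6 members lower in mRNA than in genomic DNA. Above the copy-weighted mean, 2 passed with a linear mean and 2 with the stronger homotypic array as the expectation. With replicate number as a block (replicate block), 2 passed above that mean, 1 above both, 0 in the exchange of 3 motifs and 1 between contexts. The numbers were not shown to pair samples, since mRNA and genomic DNA deviations of the same number correlated with r of -0.018, 0.046 and -0.027. Without the strongest barcode of each construct, chosen after seeing the data, 3 passed as above MEF2, 1 as above both, and 1 order call passed. With at least 20 barcodes 1 context call passed, and centred on rd 0 members were lower than genomic DNA.

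Some integrated departures changed sign. Against the stronger homotypic array FOXO-MEF2 in context 1 stood at -0.093, FOXO-MEF2-FOXO in context 1 at -0.51, and MEF2-FOXO-MEF2 at -2.84 in context 1 and -1.22 in context 3, and with a linear mean the last design stood at -1.36 and -0.24. With 1 replicate left out, its departure ranged between -0.38 and 0.85 in context 1 and between -0.74 and 1.13 in context 3, and that of MEF2-FOXO in context 2 between -1.02 and 0.75. The order difference in context 2 ranged between -0.024 and 2.12. Without the strongest barcodes MEF2-FOXO stood at 1.03 in context 2 and -5.04 in context 3, and FOXO-MEF2-FOXO minus MEF2-FOXO-MEF2 at 0.081 in context 2. In context 3 MEF2-FOXO had mRNA in 1 of 17 barcodes. This setting left it none, so its -5.04 depends on the 0.5 added to the RPM. The cause of these changes was not tested. Integrated values rest on few barcodes with mRNA.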
